A study of Mus musculus with 48 samples.

Results

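Otx2, Utf1, Grhl2, Zic2, Zic5, Sox4, Sox11 and Foxd3 are transcription factors or chromatin-bound regulators of the formative and primed states of the mouse epiblast. These 8 genes, of 22745 with a value on the arrays, were picked by name for their part in leaving naive pluripotency, with earlier results of these data known. Their gene identifiers are ENSMUSG00000021848 for Otx2, ENSMUSG00000047751 for Utf1, ENSMUSG00000022286 for Grhl2, ENSMUSG00000061524 for Zic2, ENSMUSG00000041703 for Zic5, ENSMUSG00000076431 for Sox4, ENSMUSG00000063632 for Sox11 and ENSMUSG00000067261 for Foxd3. Their levels were followed while mouse embryonic stem cells with 2 X chromosomes (XX), 1 X chromosome (XO) or an X and a Y chromosome (XY) became epiblast stem cells (EpiSC).

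Embryonic stem cells held with inhibitors of Mek1 and Gsk3 and the cytokine LIF stay in the naive state, which resembles the epiblast before implantation. When the inhibitors and LIF are withdrawn and Activin A and Fgf are given, the cells pass through a formative state to a primed state that resembles the epiblast after implantation, and EpiSC are its cultured form. Otx2 is a homeodomain factor that joins Oct4 at new enhancers during this exit, and it later patterns the anterior neural plate.

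The XX and XO cells carried the line name Pgk12.1 and the XY cells the line name E14. All 3 were adapted between passages 21 and 26 to 2i medium with 3 µM of the Gsk3 inhibitor CT-99021, 1 µM of the Mek1 inhibitor PD-0325901 and 100 U/ml LIF, and were sampled there at 0 h. They were then plated on fibronectin (10 µg/ml) with 20 ng/ml Activin A and 12 ng/ml Fgf-basic, without the inhibitors and LIF, and lysed at times up to 84 h. XY cells come from a different line than the XX and XO cells, so line and sex chromosomes cannot be told apart in any comparison with XY. The labels name no second XX or XO line. The number of X chromosomes thus cannot be told apart from other differences between the XX and the XO cells.

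Total RNA was hybridised to Affymetrix Mouse Exon 1.0 ST arrays, 18 for XX at 16 times, 19 for XO at 17 times and 10 for XY at 9 times, with 1 further array of a commercial reference RNA. XX, XO and XY cells at 0 h and XX and XO cells at 36 h had duplicate arrays, A and B, and each of the other 37 conditions had 1. Whether A and B were separate cultures is not stated. A p-value for levels or changes at 0 and 36 h thus reflects how far arrays of one condition lay apart, which may be technical. A p-value from a smooth curve of time fitted in each line reflects mostly how far single arrays of successive times lay from that curve. The deposited values are log2 signals summarised per gene, and 1 log2 unit is a 2-fold difference. Levels of different genes are not comparable on this scale, and the number of arrays limits the precision. On 5 arrays (XO at 12, 52, 56 and 60 h and XY at 32 h) the interquartile range over all genes was 2.77 to 2.90, against a median of 3.08 over the 47 cell arrays. Because the RNA came from whole wells, fewer cells of a type and less RNA per cell cannot be told apart. The labelled cell type could not be set against cell type markers, since no table here pairs the other identifiers with gene names.

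The promoter sequences of 4 of the genes are shown as examples: Otx2 leads the group, Utf1 was among the first to move, Zic5 was lowest in XY cells at 0 h and Foxd3 was the exception. RefSeq promoter windows of build GRCm38.p6, each 300 bases long and mostly upstream of a gene's start, were listed for 6 of the 8 genes, with 4 windows for Otx2. Of those 4, the one shown was picked because it holds an Otx motif. The windows are Otx2 at chr14:48665060-48665359 on the minus strand, Utf1 at chr7:139943606-139943905 on the plus strand, Zic5 at chr14:122465609-122465908 on the minus strand and Foxd3 at chr4:99656049-99656348 on the plus strand. They are written 5′ to 3′ on the gene's strand, and capitals mark matches to the motifs named afterwards.
Otx2: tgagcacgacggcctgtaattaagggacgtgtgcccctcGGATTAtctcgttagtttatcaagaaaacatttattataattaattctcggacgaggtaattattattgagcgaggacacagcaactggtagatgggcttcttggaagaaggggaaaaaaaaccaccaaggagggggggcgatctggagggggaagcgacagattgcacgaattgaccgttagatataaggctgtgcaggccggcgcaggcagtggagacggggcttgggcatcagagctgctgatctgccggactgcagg
Utf1: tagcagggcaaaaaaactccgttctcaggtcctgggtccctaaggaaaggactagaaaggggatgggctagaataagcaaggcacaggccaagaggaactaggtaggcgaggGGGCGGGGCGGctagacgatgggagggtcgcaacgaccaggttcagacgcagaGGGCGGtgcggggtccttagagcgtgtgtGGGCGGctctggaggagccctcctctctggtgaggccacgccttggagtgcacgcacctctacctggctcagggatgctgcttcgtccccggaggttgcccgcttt
Zic5: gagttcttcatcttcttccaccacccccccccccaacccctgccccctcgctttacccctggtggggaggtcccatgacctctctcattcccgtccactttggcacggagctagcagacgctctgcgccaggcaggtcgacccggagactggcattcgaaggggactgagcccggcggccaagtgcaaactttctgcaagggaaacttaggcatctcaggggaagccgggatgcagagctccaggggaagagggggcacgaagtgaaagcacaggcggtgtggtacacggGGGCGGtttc
Foxd3: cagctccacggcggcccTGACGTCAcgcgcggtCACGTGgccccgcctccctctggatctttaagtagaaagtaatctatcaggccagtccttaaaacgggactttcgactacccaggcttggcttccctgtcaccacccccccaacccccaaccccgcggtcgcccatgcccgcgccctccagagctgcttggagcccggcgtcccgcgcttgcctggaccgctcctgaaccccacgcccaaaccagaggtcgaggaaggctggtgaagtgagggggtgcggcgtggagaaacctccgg

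Both strands were searched for 7 motifs, and each share is that of all 32851 windows holding a match. The Sox core ACAAT was present in 31.0% of windows, the Otx motif TAATCC in 7.1% and the Fox motif TAAACA in 13.4%. The E-box CACGTG was present in 7.2%, the GC box GGGCGG in 35.7%, the TATA motif TATAAA in 13.6% and the CRE core TGACG in 20.8%. Counting from 1 at the 5′ end of the window, the Otx2 window shown had the Otx motif at base 40, read on the opposite strand, and the other 3 Otx2 windows had 0 matches to it. The Utf1 window had 4 GC boxes, at bases 113, 118, 166 and 195, of which the first pair overlap by 1 base. The Zic5 window had 1 GC box at base 291. The Foxd3 window had an E-box at base 34 and overlapping CRE core matches at bases 18 and 21, one on each strand. A match describes letters and is not a measured binding site.

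Nearly all of the group rose during differentiation in each line, and the exception was Foxd3 in XX cells. By 36 h, 5 of the 8 genes had risen in XX cells, where 6.62% of all genes were higher (limma, Benjamini-Hochberg adjusted p under 0.05 over all 22745 genes, as throughout). All 8 had risen by 36 h in XO cells, against 11.9% of all genes. Without XX 36 h A the number in XX cells was 3, and without XO 0 h A, XO 36 h A or XO 36 h B the number in XO cells was 5. The median change of the 8 genes at 36 h was 1.00 log2 units in XX cells and 1.74 in XO cells, while the median over all genes was 0.05 in XX cells and 0.08 in XO cells. Over the whole course, modelled as a smooth curve of time in each line, 7 of the 8 genes in XX cells changed with time and had a fitted 84 h level above 0 h, as had 18.3% of all genes. All 8 did so in XO cells (36.0% of all genes) and all 8 in XY cells (24.8%). The fitted change to 84 h had a median over the 8 genes of 1.45 log2 units in XX cells, 1.80 in XO cells and 2.43 in XY cells. Over all genes that median was 0.03 in XX cells, 0.12 in XO cells and 0.02 in XY cells.

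**Figure D1:**
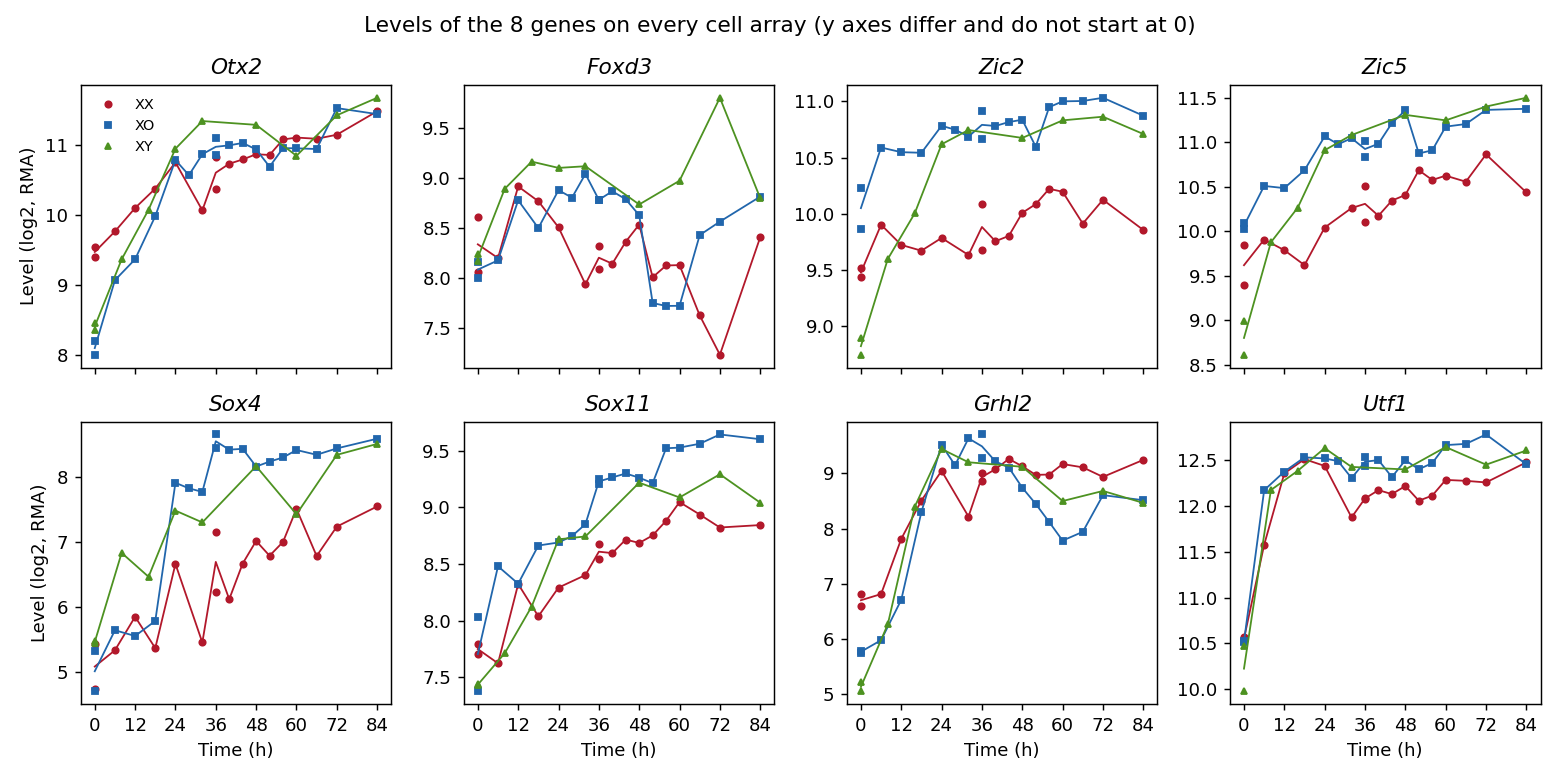
Log2 levels (y axis, RMA units, own scale for each gene) of the 8 genes on every cell array against time in hours (x axis) for XX (red circles), XO (blue squares) and XY cells (green triangles), with lines through the mean at each time. Otx2 in XX cells started at 9.40 and 9.55, above the XO and XY arrays, and Zic2 in XX cells lay below XO cells at every shared time.

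Otx2 differed between the lines in where it started and in how far it rose, and much less in the level it reached. At 0 h its log2 level was 9.40 and 9.55 on the XX arrays, 8.20 and 8.01 on the XO arrays and 8.46 and 8.36 on the XY arrays. The XX arrays were the highest and did not overlap either of the other lines. XX cells stood 1.37 ± 0.18 log2 units above XO cells (SE, adjusted p = 0.00275 by limma) and 1.06 ± 0.18 above XY cells (adjusted p = 0.00731).

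By 24 h the single arrays read 10.75 in XX cells, 10.79 in XO cells and 10.95 in XY cells. At 36 h Otx2 read 10.83 and 10.38 in XX cells, against 11.10 and 10.85 in XO cells. The higher XX array lay just under the lower XO array, and the level at 36 h did not pass the test (XX minus XO -0.37, adjusted p = 0.279 by limma). From 66 to 84 h the arrays spanned 11.09 to 11.48 in XX cells, 10.94 to 11.53 in XO cells and 11.43 to 11.68 in XY cells. These ranges overlapped between all 3 lines.

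The rise of Otx2 from 0 to 36 h was 1.13 log2 units in XX cells (2.19-fold, adjusted p = 0.00397 by limma) and 2.87 in XO cells (7.33-fold, adjusted p = 1.83e-05). The difference of these rises was itself tested and came to -1.74 ± 0.26 (SE, XX minus XO, adjusted p = 0.0203 by limma). Leaving out any 1 of 6 of the 10 arrays ended this call, and the value stayed between -1.97 and -1.52, with adjusted p of 0.0337 to 0.0857 for Otx2. Over the 15 shared times after 0 h the Otx2 level was higher in XX than in XO at 8 and lower at 7, with a mean difference of 0.02. The change from the line's own 0 h level was smaller in XX at 15 of 15 times, and all of these changes share the same 0 h arrays.

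Utf1, a chromatin-bound regulator found in undifferentiated embryonic cells, was the first of the group, or among the first, to rise by 1 log2 unit in every line. Its log2 level at 0 h was 10.57 and 10.54 in XX cells, 10.51 and 10.52 in XO cells and 9.98 and 10.47 in XY cells. At the next sampled time it was 11.57 in XX cells (6 h), 12.17 in XO cells (6 h) and 12.17 in XY cells (8 h). All 3 of these arrays lay above every 0 h array of their line, and by 12 h XX and XO cells read 12.35 and 12.37.

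The level then stayed near that height to the end, with 12.25 to 12.47 in XX cells, 12.45 to 12.78 in XO cells and 12.45 to 12.60 in XY cells from 66 h. Utf1 rose by 1.53 log2 units in XX cells by 36 h (adjusted p = 0.000594 by limma) and by 1.96 in XO cells (adjusted p = 0.000108). XX cells had the lower level at 14 of 15 shared times, by 0.29 on average. Neither the difference of the rises to 36 h (-0.43, adjusted p = 0.446) nor the difference of the courses (adjusted p = 0.723) passed the test by limma.

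Grhl2, a grainyhead factor that opens and maintains the enhancers of epithelial genes, had the largest estimated rise of the group by 36 h, in XO cells close to that of Sox4. At 0 h it read 6.59 and 6.81 in XX cells, 5.79 and 5.75 in XO cells and 5.21 and 5.05 in XY cells, and no 2 lines overlapped. XX cells were 0.93 ± 0.18 log2 units above XO cells (SE, adjusted p = 0.0130 by limma) and 1.57 ± 0.18 above XY cells (adjusted p = 0.00106). XO cells read 0.64 above XY cells, which did not pass (adjusted p = 0.0538 by limma).

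Grhl2 rose by 2.23 log2 units in XX cells by 36 h (4.70-fold, adjusted p = 0.000105 by limma) and by 3.72 in XO cells (13.2-fold, adjusted p = 3.4e-06). The rise in XX cells was smaller by 1.49 ± 0.25 (SE, difference -1.49, adjusted p = 0.0289 by limma). This call was lost without any 1 of 6 arrays, with Grhl2 differences of -1.70 to -1.27 and adjusted p of 0.0403 to 0.108. The call on the Grhl2 level at 0 h was lost without XX 0 h B or without either XO 0 h array, with an adjusted p of up to 0.0861 over all arrays left out in turn.

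After 36 h the Grhl2 courses of the Pgk12.1 cells went apart in the other direction. In XO cells it read 9.28 and 9.71 at 36 h, then 9.22, 9.11 and 8.74 at 40, 44 and 48 h, and then 8.45, 8.12 and 7.78 at 52, 56 and 60 h. It was 7.94, 8.61 and 8.52 in XO cells at 66, 72 and 84 h. In XX cells every array from 36 h on lay between 8.87 and 9.26. The 52, 56 and 60 h XO arrays are among those of narrow range, while the XO arrays at 48, 66, 72 and 84 h, which are not, also lay below every XX array from 36 h on. XY cells read 9.44 at 24 h and 8.50, 8.68 and 8.47 at 60, 72 and 84 h. Grhl2 was higher in XX than in XO at 11 of the 15 shared times and lower at 4, from 24 to 40 h. The course as a whole differed between XX and XO (adjusted p = 0.000243 by limma), with the largest fitted difference in change, -1.65, at 36 h. The fall after 36 h in XO cells was not tested on its own.

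**Figure D2:**
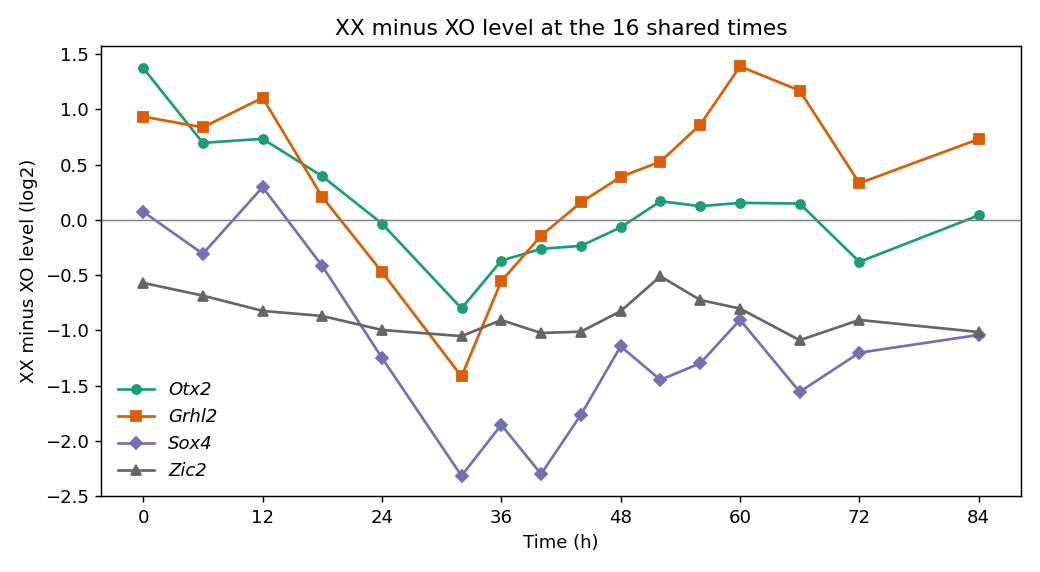
XX minus XO level in log2 units (y axis) at the 16 shared times in hours (x axis) for Otx2, Grhl2, Sox4 and Zic2, from array means. Otx2 and Grhl2 began above 0 at 1.37 and 0.93, Sox4 fell to -2.32 at its lowest, and Zic2 stayed below 0 throughout.

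Zic2 and Zic5 encode zinc finger factors best known from neural tube and forebrain development, and Zic2 also binds enhancers in embryonic stem cells. They are neighbouring genes with 0 protein-coding genes between them in the RefSeq table. Their levels followed each other more closely than those of any other of the 28 pairs in the group, with Pearson's r = 0.933 over the 47 cell arrays. Within lines the r of Zic2 and Zic5 was 0.836 in XX cells, 0.896 in XO cells and 0.989 in XY cells. Other pairs were closer within XX and XO cells, among them Otx2 and Sox4 (0.933 in XX cells and 0.945 in XO cells). These are descriptions, since the arrays share time, line and processing.

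At 0 h Zic2 read 9.52 and 9.44 in XX cells, 9.87 and 10.23 in XO cells and 8.90 and 8.75 in XY cells. XO cells were highest and XY cells lowest, with no overlap. Zic5 read 9.84 and 9.39 in XX cells, 10.03 and 10.09 in XO cells and 8.99 and 8.61 in XY cells, in the same order. XO cells exceeded XY cells by 1.23 log2 units for Zic2 (adjusted p = 0.00715 by limma) and by 1.26 for Zic5 (adjusted p = 0.00958). XX cells exceeded XY cells by 0.82 for Zic5 (adjusted p = 0.0379 by limma) and by 0.66 for Zic2, which did not pass (adjusted p = 0.0590). XX minus XO was -0.57 for Zic2 (adjusted p = 0.110) and -0.44 for Zic5 (adjusted p = 0.251), and neither passed by limma. The Zic5 call of XX against XY was lost with each array centred on its median (0.66, adjusted p = 0.0795 by limma). It was also lost without any 1 of 7 of the 10 arrays, with values of 0.59 to 1.04 and adjusted p of up to 0.190 for Zic5.

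Of the 3 lines, XY cells had the largest fitted change in the Zic genes. By 24 h Zic2 read 9.79 in XX cells, 10.78 in XO cells and 10.62 in XY cells, so XY cells, lowest at 0 h, had passed XX cells and lay close to XO cells. Zic5 read 10.04 in XX cells, 11.06 in XO cells and 10.91 in XY cells at that time. Fitted changes to 84 h for Zic2 were 0.29 in XX cells, 0.82 in XO cells and 1.93 in XY cells, and those of Zic5 were 0.86, 1.33 and 2.66 in the same order.

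At every one of the 15 shared times after 0 h, Zic2 and Zic5 were lower in XX than in XO cells, on average by 0.88 for Zic2 and 0.71 for Zic5. At 36 h the Zic2 difference passed the test (XX minus XO -0.91 ± 0.19, SE, adjusted p = 0.0219 by limma). Without XX 36 h B, XO 36 h A or XO 36 h B the Zic2 call was lost, with values of -1.11 to -0.70 and adjusted p of up to 0.133. The Zic5 difference at 36 h was -0.62 (adjusted p = 0.118 by limma). For neither gene did the change over time pass the test of a difference between XX and XO (adjusted p = 0.261 for Zic2 and adjusted p = 0.158 for Zic5, limma).

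Sox4 and Sox11 are SoxC factors, HMG-box proteins best known from neural and mesenchymal progenitors. At 0 h Sox4 read 4.73 and 5.42 in XX cells, 4.70 and 5.32 in XO cells and 5.48 and 5.44 in XY cells, and no pair of lines passed the test. At 24 h it read 6.66 in XX cells, 7.90 in XO cells and 7.48 in XY cells. At 36 h it read 7.15 and 6.23 in XX cells, against 8.65 and 8.44 in XO cells, without overlap.

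Sox4 had risen by 36 h by 1.61 ± 0.34 log2 units in XX cells (SE, adjusted p = 0.0139 by limma) and by 3.54 ± 0.34 in XO cells (adjusted p = 0.000176). The XX call was lost without XX 0 h A or XX 36 h A, with values of 1.15 to 2.07 for Sox4 and adjusted p of up to 0.0826. All 0 h values of Sox4 lay below 5.57, the lower quartile of all values on the cell arrays. The level at 36 h was lower in XX by 1.86 log2 units (difference -1.86, adjusted p = 0.0112 by limma). Without XX 36 h B or XO 36 h A this Sox4 call was lost, with values of -2.32 to -1.39 and adjusted p of up to 0.0753. The difference of the Sox4 rises, -1.93 ± 0.48 (SE), did not pass (adjusted p = 0.0957 by limma). XX cells had the lower Sox4 level at 14 of 15 shared times, by 1.23 on average. From 66 to 84 h the arrays spanned 6.78 to 7.54 in XX cells, 8.33 to 8.58 in XO cells and 8.33 to 8.50 in XY cells, and the XX arrays lay below all others.

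Sox11 rose by less than Sox4 in its estimates. It read 7.80 and 7.71 in XX cells, 7.38 and 8.03 in XO cells and 7.44 and 7.43 in XY cells at 0 h, where the XO duplicates differed by more than the lines did. By 36 h it had risen by 0.86 log2 units in XX cells (adjusted p = 0.0231 by limma) and by 1.52 in XO cells (adjusted p = 0.00107). The Sox11 call in XX cells was lost without any 1 of the 4 XX arrays, with values of 0.79 to 0.92 and adjusted p of up to 0.128. It was lower in XX at 15 of 15 shared times, by 0.57 on average. From 66 to 84 h it spanned 8.82 to 8.94 in XX cells, 9.56 to 9.64 in XO cells and 9.04 to 9.29 in XY cells, and no 2 lines overlapped. The difference between XX and XO in level at 36 h (-0.62, adjusted p = 0.0995) and in course (adjusted p = 0.134) did not pass by limma.

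Foxd3, a forkhead factor needed to maintain the epiblast and later the neural crest, did not follow the rest of the group. It read 8.61 and 8.06 in XX cells, 8.00 and 8.16 in XO cells and 8.17 and 8.24 in XY cells at 0 h. In XX cells it was 8.92 at 12 h, 7.94 at 32 h, 7.23 at 72 h and 8.41 at 84 h. Its change in XX cells was -0.13 by 36 h (adjusted p = 0.721 by limma), and its course there did not pass (adjusted p = 0.115).

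In XO cells Foxd3 read 8.78 and 8.78 at 36 h and was 0.70 log2 units above 0 h (adjusted p = 0.0344 by limma). This call was lost with each array centred on its median (0.60, adjusted p = 0.0620) or after quantile normalization (0.58, adjusted p = 0.0611 by limma). It was also lost without any 1 of 6 of the 10 arrays, with an adjusted p of up to 0.162 for Foxd3. The Foxd3 value then dropped to 7.75, 7.72 and 7.72 at 52, 56 and 60 h, on 3 of the 5 arrays of narrow range, and read 8.43, 8.56 and 8.82 at 66, 72 and 84 h. The part of the array range in that dip was not tested. Without those 5 arrays the Foxd3 course in XO cells had a fitted change of 0.77 (adjusted p = 0.0267 by limma), against 0.92 (adjusted p = 0.00138) with all arrays. In XY cells Foxd3 read 8.74 to 9.17 from 8 to 48 h, with its highest value, 9.81, at 72 h. Its course there passed (fitted change 0.86, adjusted p = 0.0256 by limma), and it lost the call with XY arrays alone (adjusted p = 0.119) and without either XY 0 h array (adjusted p of up to 0.154).

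The order of onset was described in each line as the first sampled time at which a gene stood 1 log2 unit from its line's 0 h mean and stayed so at the next time. These times depend on the sampling, which was every 4 to 12 h and differed for XY cells, and carry no test. Utf1 reached this threshold at 6 h in XX cells, 6 h in XO cells and 8 h in XY cells, which is the first time sampled after 0 h in each line. Grhl2 reached it at 12 h in XX cells, 18 h in XO cells and 8 h in XY cells. Otx2 reached it at 36 h in XX cells, 12 h in XO cells and 16 h in XY cells, and Sox4 at 36 h in XX cells, 24 h in XO cells and 8 h in XY cells. In XX cells both stood over 1 log2 unit from 0 h already at 24 h, with changes of 1.28 for Otx2 and 1.58 for Sox4, and the single XX array at 32 h broke the hold. Without that array both onsets in XX cells were at 24 h. Of the 5 genes that reached it in all 3 lines, Sox11 was last, at 52 h in XX cells, 28 h in XO cells and 24 h in XY cells.

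Zic5 reached the threshold at 44 h in XO and at 8 h in XY cells and never held it in XX cells. Zic2 reached it at 16 h in XY cells alone, and Foxd3 in no line. Thus 4 of the 8 genes (Otx2, Sox4, Sox11 and Zic5) reached it later, or not at all, in XX than in XO cells, where 16.4% of all genes did, and 1, Grhl2, reached it earlier in XX, where 8.02% did. Without the XX array at 32 h Sox4 was no longer later in XX than in XO cells, and the number later was 3. Leaving out each other XX or XO array in turn gave 4 to 5 later and 0 to 2 earlier, with 0 earlier without XX 0 h A or XX 12 h. Grhl2 in XO cells read 6.71 at 12 h against a 0 h mean of 5.77, just under the threshold, on an array of narrow range. The threshold is set from the line's own start, and Otx2 and Grhl2 started higher in XX cells. The time to 50% of each gene's own largest change, interpolated between arrays, was also taken. It was 19.6 h in XX cells, 16.3 h in XO cells and 15.6 h in XY cells for Otx2, and 13.5 h in XX cells, 15.7 h in XO cells and 11.8 h in XY cells for Grhl2. For Sox4 it was 22.4 h in XX cells, 20.9 h in XO cells and 20.1 h in XY cells, for Sox11 31.7 h in XX cells, 20.4 h in XO cells and 19.2 h in XY cells, and for Utf1 5.74 h in XX cells, 4.10 h in XO cells and 4.96 h in XY cells. For Zic5 it was 31.3 h in XX cells, 18.5 h in XO cells and 13.6 h in XY cells, the widest gap between XX and XO cells among these 6 genes. For Zic2 it was 5.26 h in XX cells, 5.46 h in XO cells and 12.8 h in XY cells. For Foxd3 it was 64.1 h in XX cells, 9.85 h in XO cells and 11.3 h in XY cells. The largest Foxd3 change in XX cells was a fall, -1.11 at 72 h.

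**Figure D3:**
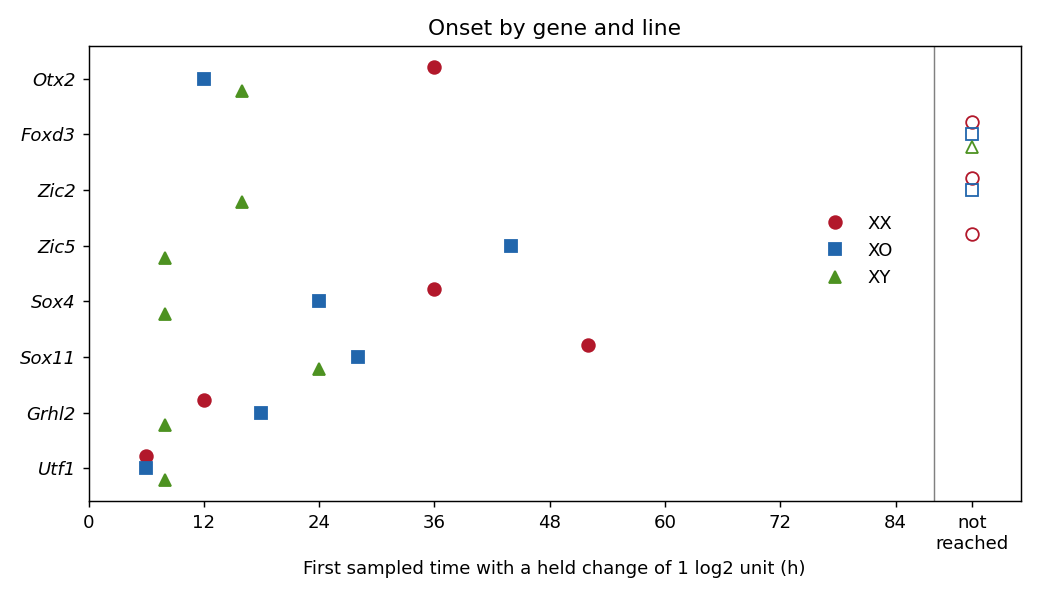
First sampled time (x axis, hours) at which each of the 8 genes (rows) had a held change of 1 log2 unit from the 0 h mean in XX (red circles), XO (blue squares) and XY cells (green triangles), with open symbols for a threshold not reached. Otx2 reached it at 36 h in XX cells (24 h without the XX array at 32 h), 12 h in XO cells and 16 h in XY cells, and Utf1 at 6 to 8 h in all 3. Sox4 in XX cells, drawn at 36 h, was likewise at 24 h without that array.

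The fitted curves allow early times to be tested, but they smooth over neighbouring times and can differ from the array at a time. For Grhl2 in XO cells the fitted change at 12 h was 1.74, while the array read 6.71 against a 0 h mean of 5.77. For Sox4 in XO cells the fitted change at 24 h was 2.12, against 2.90 on the array. At 12 h, 3 of the 8 genes (Otx2, Grhl2 and Utf1) had risen in XX cells, against 3.36% of all genes. In XO cells 6 had risen, all but Foxd3 and Sox4, against 6.07% of all genes, and in XY cells 7, all but Sox4, against 9.27%. XY cells were not sampled at 12 h, so their values at 12 h lie on the curve between the 8 and 16 h arrays. Sox4 in XY cells read 6.83 at 8 h and 6.46 at 16 h, above both 0 h arrays. Its fitted change at 12 h was 1.00 (adjusted p = 0.0648 by limma). Without XO 0 h A, 3 genes in place of 6 passed in XO cells, and without XY 0 h A, XY 0 h B, XY 16 h or XY 24 h the XY call of Foxd3, of Sox11 or of both was lost. At 24 h, 4 had risen in XX cells, namely Otx2, Sox11, Grhl2 and Utf1, against 6.15% of all genes, and Sox4 stood at 0.94 there (adjusted p = 0.0775 by limma). All 8 had risen by 24 h in XO cells (13.6% of all genes) and in XY cells (8.60%). Without the 5 arrays of narrow range 7 had in each, all but Foxd3 (0.69, adjusted p = 0.0501 in XO cells and 0.79, adjusted p = 0.0713 in XY cells, limma). Foxd3 also lost the call at 24 h without any 1 of 6 XO arrays or 3 XY arrays, with adjusted p of up to 0.212 in XO cells and 0.137 in XY cells. The XX array at 32 h read below both the 24 h array and the 36 h arrays for 6 of the 8 genes, as it did for 19.3% of all genes. Its value for Otx2 was 10.07, for Grhl2 8.22 and for Sox4 5.45.

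At 0 h, 2 of the 8 genes were higher in XX than in XO cells, Otx2 and Grhl2, against 7.53% of all genes. In XX against XY cells 3 were higher, Otx2, Zic5 and Grhl2, where 8.80% of all genes were, and in XO against XY cells 2, Zic2 and Zic5, where 4.27% were. Of XX against XO, 1 was called without XX 0 h B or either XO 0 h array. Of XO against XY, 0 were called without XO 0 h B and 1 without XY 0 h B. None of the 8 was lower at 0 h by the test in any of the 3 comparisons, which share arrays with one another.

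Between XX and XO cells at 36 h, 2 of the 8 genes were lower in XX, Zic2 and Sox4, and none was higher, while 3.36% of all genes were lower. Without XX 36 h B or XO 36 h A none of the 8 was called, and without XO 36 h B 1 was. The change from 0 to 36 h was lower in XX for 2, Otx2 and Grhl2, against 0.989% of all genes. Here and below a lower change goes by sign, so the shares of all genes also count larger falls. Without XX 36 h A or XO 36 h A 1 of these calls was left, and without any other XX or XO array, XX 0 h A excepted, none was. Over the whole course 3 of the 8 differed between XX and XO with a lower fitted change in XX, and 16.0% of all genes did so. These were Otx2 (-1.69 at 36 h, adjusted p = 6.61e-07), Sox4 (-2.11 at 40 h, adjusted p = 0.00189) and Grhl2 (-1.65 at 36 h, adjusted p = 0.000243), by limma. Each p-value is an F test of the whole course. The value beside it is the largest fitted difference, which was not tested at its own time.

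Averaged over the 15 shared times, the fitted change was lower in XX than in XO for 2 genes, as it was for 4.10% of all genes. It differed by -1.28 ± 0.17 for Otx2 (SE, adjusted p = 4.12e-06 by limma) and by -1.30 ± 0.38 for Sox4 (adjusted p = 0.0334). The median over all genes was -0.05. The Sox4 call was lost without XX 0 h B, XX 18 h, XO 0 h A or XO 24 h, with values of -1.56 to -1.05 for Sox4 and adjusted p of up to 0.207. The Otx2 call held without each of the 47 arrays in turn, with values of -1.33 to -1.18. This difference in change shares the 0 h arrays with the Otx2 level difference of 1.37 at 0 h. The Otx2 level itself differed by 0.02 on average over the shared times.

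**Figure D4:**
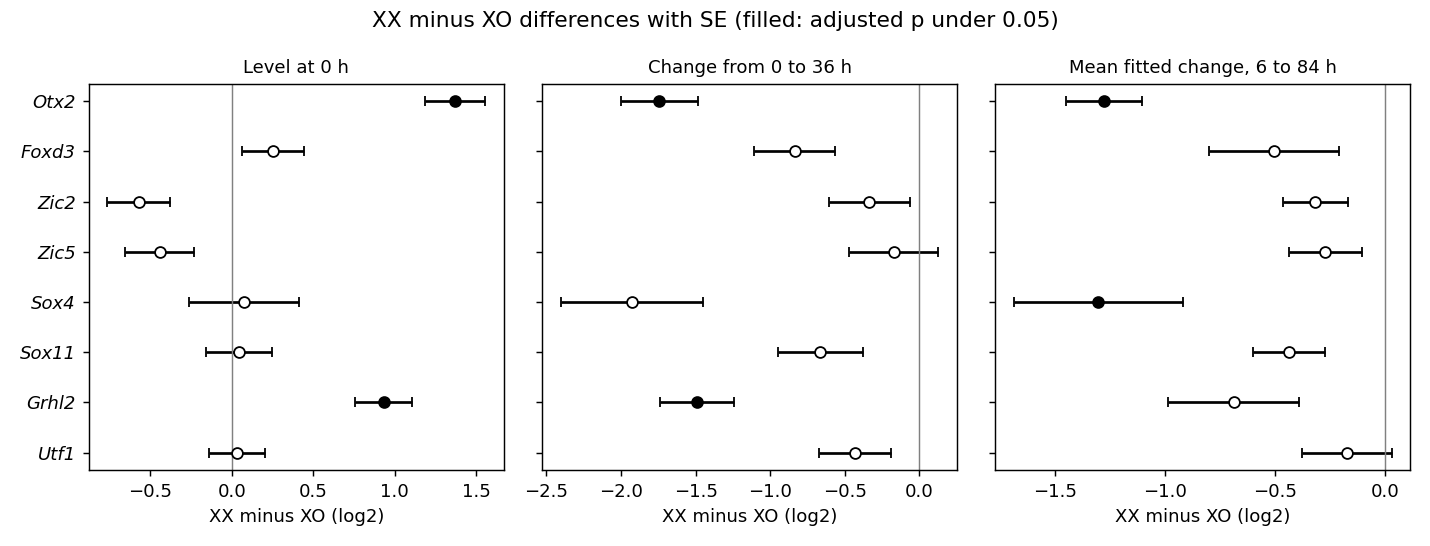
XX minus XO differences in log2 units (x axis) with their SE for each of the 8 genes (rows): the level at 0 h, the change from 0 to 36 h and the mean fitted change over the shared times from 6 to 84 h. Filled points passed the test, and Otx2 did so in all 3 panels, at 1.37, -1.74 and -1.28. All 3 panels use the same 0 h arrays, so they are not separate results.

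Against XY cells, the changes over time were smaller in the Pgk12.1 cells for some of the group. The course differed between XO and XY cells for 2 of the 8 genes, with a lower fitted change in XO. These were Zic2 (-1.30 at 40 h, adjusted p = 4.83e-05) and Zic5 (-1.44 at 48 h, adjusted p = 3.81e-05 by limma). Of all genes, 7.21% differed that way. The Otx2 courses of XO and XY cells did not pass a test of their difference (largest fitted difference 0.26, adjusted p = 0.562 by limma). Between XX and XY cells 4 of the 8 genes had a lower fitted change in XX, where 11.7% of all genes had. They were Otx2 (-1.93 at 36 h, adjusted p = 4.51e-06), Zic2 (-1.69 at 36 h, adjusted p = 1.99e-07), Zic5 (-1.81 at 84 h, adjusted p = 6.89e-07) and Grhl2 (-2.12 at 32 h, adjusted p = 0.00231), by limma. As above, each p-value is an F test of the whole course, and the value beside it is the largest fitted difference. XY cells were not sampled at 36, 40 or 44 h, and fitted values at those times lie between arrays.

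Across the 47 cell arrays the other genes of the group were ranked by their Pearson correlation with Otx2 among 22744 genes. Grhl2 ranked 25 (r = 0.886), Sox11 114 (r = 0.828), Utf1 164 (r = 0.805), Sox4 174 (r = 0.802), Zic5 365 (r = 0.753), Zic2 1513 (r = 0.587) and Foxd3 7108 (r = 0.201). Within lines the order differed. For Sox4 the r was 0.933 in XX cells, 0.945 in XO cells and 0.944 in XY cells, and for Grhl2 0.922, 0.852 and 0.935. In the same order it was 0.807, 0.949 and 0.985 for Zic5 and 0.742, 0.886 and 0.978 for Zic2. The arrays share time, line and processing, so these are descriptions. The genes closest to Otx2 were ENSMUSG00000034573 (r = 0.932) and ENSMUSG00000045394 (r = 0.930), and the most opposed were ENSMUSG00000042118 (r = -0.938) and ENSMUSG00000052942 (r = -0.920). No name is given to them here. ENSMUSG00000034573 had a 0 h mean of 7.38 in XX cells, 6.48 in XO cells and 6.01 in XY cells. Its XX cells began highest, as did those of Otx2, but it was picked for its likeness over these same arrays. At 84 h ENSMUSG00000034573 read 9.22 in XX cells, 9.09 in XO cells and 9.58 in XY cells. ENSMUSG00000042118 had a 0 h mean of 8.68 in XX cells, 8.79 in XO cells and 9.47 in XY cells and read 5.72, 5.18 and 5.03 in the same order at 84 h.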

How the data were processed

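The deposited values are log2 signals, 1 per gene and array, made by the authors with RMA (affy), per the submitters' processing notes. Tool versions, how probes were assigned to genes and the build were not given in the sources used here. Groups and times came from the labels, and 0 value columns lacked a sample. The 8 genes and the comparisons were chosen with earlier results of these data known. Of other genes, the 2 most like Otx2 and the 2 most opposed over the cell arrays were named. Lists of other formative genes, naive genes and cell type markers were not analysed here, because 0 identifiers could be matched to names through the reference table.

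Two-sided tests used limma 3.58.1 in R 4.3.3, with Benjamini-Hochberg adjustment over 22745 genes and a threshold of 0.05. Levels at 0 and 36 h were compared in 1 fit of the 10 duplicated arrays (5 residual degrees of freedom). Courses were fitted in all 47 cell arrays with natural cubic splines of time (splines 4.3.3, 4 degrees of freedom per line, knots at 17, 36 and 56 h, 32 residual degrees of freedom). They were tested by F tests of the spline terms of a line, or of the difference of these terms between lines. Deposited values were not rescaled or filtered. The code was tested on simulated data. Alternatives were array centring, quantile normalization, leaving out low genes or each array, other splines, other onset thresholds, own arrays, a trended prior and a replicate block. Leaving out the 5 arrays of narrowest range, or the XX array at 32 h for onset times, was chosen after seeing the data.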

Additional observations from a re-analysis of the deposited data

Results flagged for a closer look

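These results met a rule for closer inspection, and no explanation of them was tested. All p-values are adjusted and come from limma, and every group of arrays was too small to be searched for outlying arrays. A p-value given for a course is an F test of the whole course. The value and time beside it are those of the largest fitted difference.

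The effect of time differed between XX and XO cells for 3 genes. For Otx2 the change from 0 to 36 h differed by -1.74 (XX minus XO, adjusted p = 0.0203). The Otx2 course differed as a whole (adjusted p = 6.61e-07), with the largest fitted difference, -1.69, at 36 h. The mean fitted difference of Otx2 was -1.28 (adjusted p = 4.12e-06). These Otx2 values share the 0 h arrays, on which XX cells stood 1.37 above XO cells. For Grhl2 the change from 0 to 36 h differed by -1.49 (adjusted p = 0.0289) and the course by -1.65 at 36 h (adjusted p = 0.000243). For Sox4 the course differed by -2.11 at 40 h (adjusted p = 0.00189) and on average by -1.30 (adjusted p = 0.0334).

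Against XY cells, the course of XO cells differed by -1.30 for Zic2 at 40 h (adjusted p = 4.83e-05) and by -1.44 for Zic5 at 48 h (adjusted p = 3.81e-05). The course of XX cells differed from that of XY cells by -1.93 for Otx2 at 36 h (adjusted p = 4.51e-06), -1.69 for Zic2 at 36 h (adjusted p = 1.99e-07), -1.81 for Zic5 at 84 h (adjusted p = 6.89e-07) and -2.12 for Grhl2 at 32 h (adjusted p = 0.00231).

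The commercial reference RNA, which enters no comparison, had a Sox4 level of 7.94, above the highest 0 h cell array (5.48).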

How the results depend on the processing

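No called comparison of the 8 genes changed direction under any alternative that was run. Calls among the 8 members numbered 1 in place of 2 for the XX minus XO level at 36 h with only the arrays of that comparison in the fit, where Zic2 dropped out, and 1 in place of 2 for the XX minus XO mean difference in change with 5 spline degrees of freedom or without the 5 arrays of narrowest range, where Sox4 dropped out. The number of members with an earlier onset in XX than in XO was 0 at 0.5 log2 units, 2 without the hold at the next time and 0 at 2 log2 units, in place of 1. The number later in XX was 3 to 6, in place of 4, and 3 without the XX array at 32 h. Among single-gene results of the members, array centring ended 3 calls and added 3, quantile normalization ended 7 and added 3, and fitting each comparison on its own arrays alone ended 8 and added 1.

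Leaving out each array in turn gave 3 to 5 members called for XX 36 h minus 0 h, 5 to 8 for XO 36 h minus 0 h, 0 to 3 for XX minus XO at 36 h and 0 to 2 for the difference of the 0 to 36 h changes. It gave 1 to 2 for XX minus XO at 0 h, 0 to 3 for XO minus XY at 0 h, 3 to 7 for XO at 12 h and 1 to 3 for the mean difference in change. The arrays that moved a count by over 1.5 times were all among the duplicated ones, except XX 18 h and XO 24 h for the mean difference. Where a condition was left with 1 array, that array was assumed to vary like the others.

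Whether arrays of the same letter, A or B, were handled together is not stated. Over all genes, the A minus B differences of the duplicated conditions correlated between -0.13 and 0.19 over 10 pairs of conditions, of which 2 exceeded 0.1. A correlation over genes cannot decide whether the letters pair arrays. With the letter as a replicate block, Foxd3 in XO cells at 24 h was no longer called (0.77, adjusted p = 0.0550 by limma) and Zic5 in XX cells at 36 h was called (0.69, adjusted p = 0.0336), and no count moved by over 1.5 times. Without XX 84 h, the Foxd3 course in XX cells was called (adjusted p = 0.000905 by limma, F test of the whole course). Its fitted change to 84 h was then an extrapolation, -2.42, which was not tested on its own. With 1 array at most times, single dips such as that of Foxd3 cannot be set against replicate error.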

Other observations

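In the single array of commercial reference RNA, Otx2 read 4.93, Foxd3 5.18, Zic2 6.84, Zic5 6.89, Grhl2 4.98 and Utf1 4.70, each below every cell array. Sox11 read 7.58 there, inside the range of the cell arrays (7.38 to 9.64).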
